A study of Mus musculus with 2 samples.

Results

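The genes of the autophagy machinery were read in RNA from the gastrocnemius (a calf muscle) of mice that overexpress FOXO1 in skeletal muscle (FOXO1-Tg) and of wild-type (WT) control mice. This group of 35 genes was chosen by name as the known parts of the autophagosome pathway, out of 21366 genes that the array probes could be matched to and 16660 that were detected. RNA of 5 male FOXO1-Tg mice and of 6 male wild-type mice, all 25 weeks of age, was pooled by genotype before labeling, and each pool was hybridized to 1 Agilent whole mouse genome array. The design therefore has no replicate, no spread between mice can be seen, and no p-value is given. The paper describes the transgenic mice as overexpressing FOXO1 in skeletal muscle. The promoter of the transgene is not given in the sources used here, and the wild-type mice carry no transgene.

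Autophagy is the route by which a cell encloses its own cytoplasm and organelles in a double membrane, the autophagosome, and delivers them to the lysosome for breakdown. A kinase complex (ULK) and a lipid kinase complex (PI3K) start the membrane, ubiquitin-like conjugation enzymes attach the small ATG8 proteins (the LC3 and GABARAP families) to it, and cargo receptors bind both ATG8 and the material to be degraded. In muscle the pathway supplies amino acids during fasting and disuse, and FOXO factors are known as regulators of several of its genes.

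The highest ratios of the machinery belonged to a pair of genes of the ATG8 family. Gabarapl1, which encodes an ATG8 protein of the GABARAP branch, was 2.22-fold higher in the FOXO1-Tg pool than in the wild-type pool, and Map1lc3a, which encodes LC3A, was 1.72-fold higher. Of all genes detected, 3.34% were at least as high as Gabarapl1 and 6.01% at least as high as Map1lc3a. On the lower side, Tfeb, a transcription factor of lysosomal genes, was at 0.555 times its wild-type value, the cargo receptor gene Optn was at 0.646 times, and the protease gene Atg4a was at 0.637 times at a dim signal. The remaining 30 genes lay between log2 ratios of -0.42 (Wipi2) and 0.20 (Uvrag).

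Signals are intensities in arbitrary units, as the scanner software gives them after subtracting background. A log2 ratio is FOXO1-Tg over wild-type after division of each signal by the 75th percentile over the array's spots, 844 in the FOXO1-Tg pool and 771 in the wild-type pool. The error given with a ratio is the scanner software's own for both arrays, 0.20 on the log2 scale for 34 of the 35 genes and 0.26 for Atg4a. It was alike for probes of very different brightness and larger than the SD over repeated spots (0.03 for Map1lc3b, 0.06 for Pik3r4). It thus acts nearly as a fixed width around a ratio, is not a measured spread, and covers no difference between mice. All 46 probes of the 35 genes were well above background on both arrays and none was saturated, so every ratio was measured and none is a bound. The label of the pools was checked on Foxo1. The brighter of its probes read 279457 in the FOXO1-Tg pool and 4540 in the wild-type pool, a log2 ratio of 5.81, while a second probe had 3188 in the FOXO1-Tg pool and 2853 in the wild-type pool, a log2 ratio of 0.03.

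Only Gabarapl1 of the 35 genes was more than 2-fold higher, against 4.20% of all 16660 genes detected, and none was more than 2-fold lower, against 3.86% (8.06% of all genes were past 2-fold in either direction). At 1.5-fold, 2 genes were higher (9.18% of all genes) and 3 were lower (10.8% of all genes), so the group held no larger share past either fold than the array as a whole in either direction. The 3 lower genes became 2 with quantile normalization or normexp, and 1 (Tfeb) with array-median, loess or no scaling. The median log2 ratio of the group was -0.14, its quartiles were -0.27 and 0.01, and 25 ratios were below 0. Over all genes detected the median was -0.06, the quartiles were -0.31 and 0.20, and 9536 of 16660 ratios were below 0. The count of autophagy genes below 0 depended on the scaling of the arrays, and was 18 of 35 with no scaling or with scaling to the array median. In all, 20 of the 35 ratios were within 1 scanner error of 0, and 6 were more than 2 scanner errors from it: Gabarapl1, Map1lc3a, Tfeb, Atg4a, Optn and, narrowly, Wipi2. Of all 16660 genes detected, 7305 were within 1 scanner error of 0 and 4493 were more than 2 from it. The group thus held no larger share beyond 2 scanner errors than the array.

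**Figure D1:**
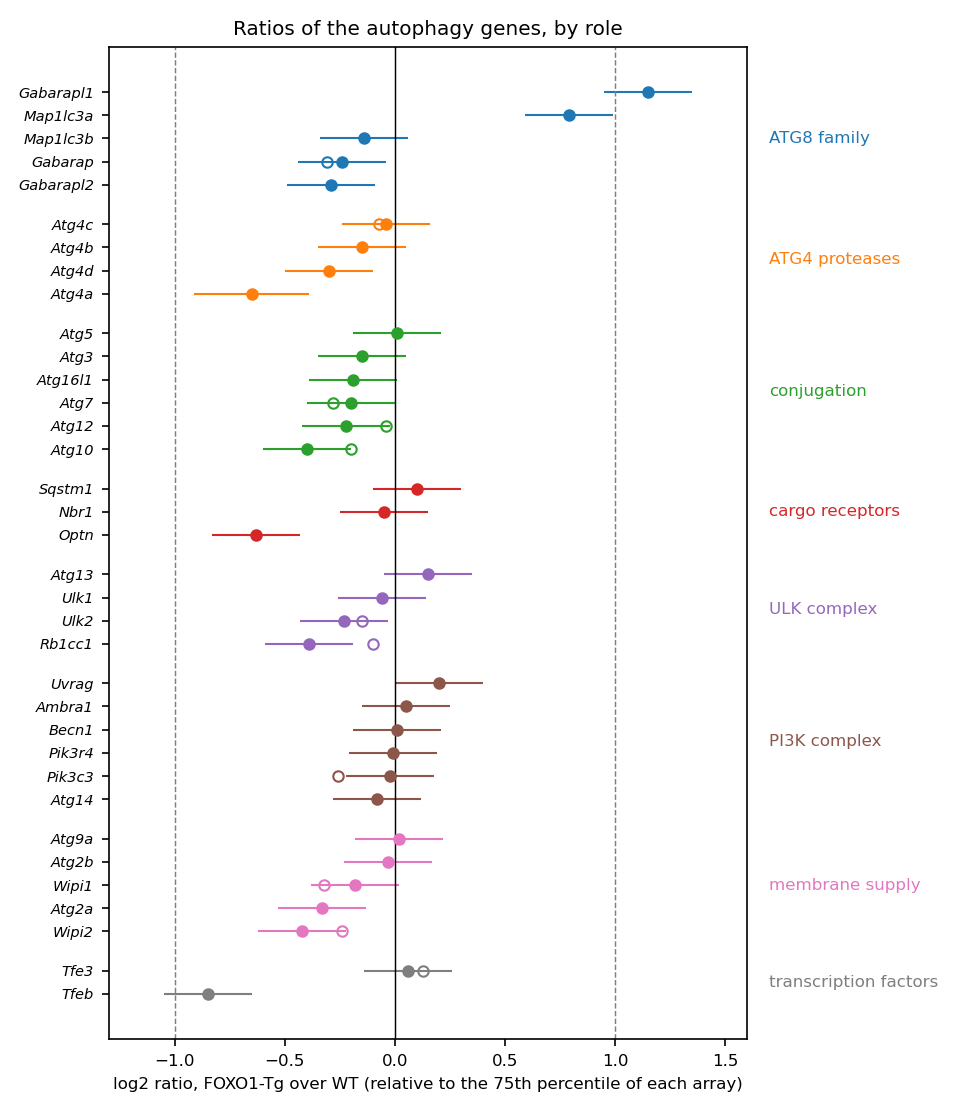
FOXO1-Tg over wild-type as a log2 ratio (x axis) for each of the 35 autophagy genes, grouped by role. Filled points are the brightest probe of a gene with its scanner error as the bar, open points are second probes, and dashed lines mark 2-fold. Gabarapl1 at 1.15 lies past the 2-fold line, Map1lc3a follows at 0.79, and Tfeb is lowest at -0.85.

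**Figure D2:**
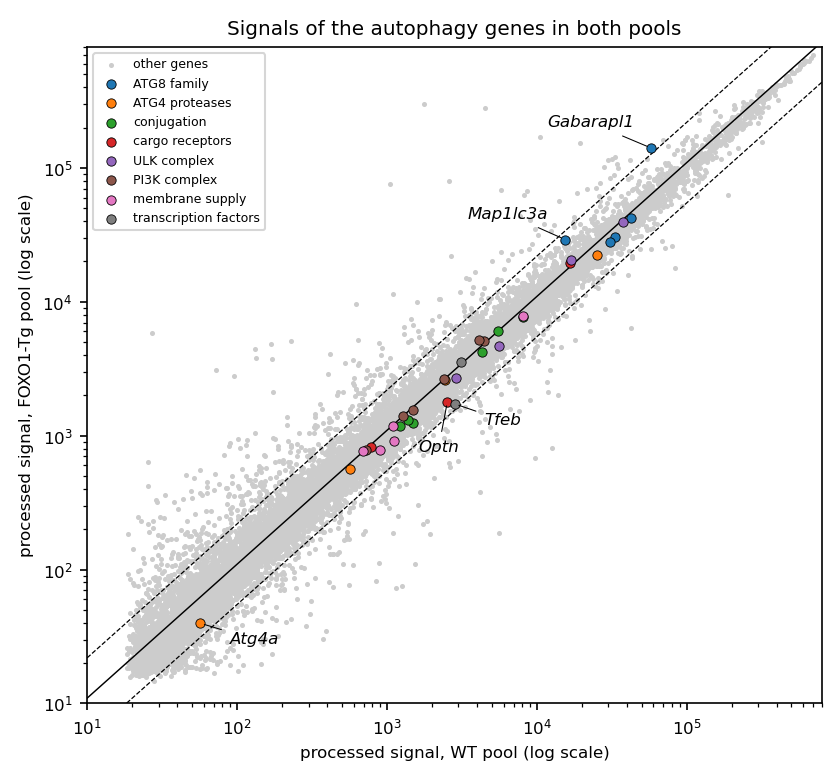
Processed signal in the FOXO1-Tg pool (y axis, log scale) against the wild-type pool (x axis, log scale) for the autophagy genes in color and the other genes detected on both arrays in grey. The solid line marks equal values after scaling and the dashed lines mark 2-fold. Gabarapl1 lies above the upper dashed line, and the point of Atg4a lies among the dim genes.

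The ATG8 proteins are the label of the autophagosome membrane, and their 5 genes did not share a direction. Gabarapl1 read 140724 in the FOXO1-Tg pool and 57986 in the wild-type pool, a log2 ratio of 1.15 (scanner error 0.20). Before scaling, the signals differed 2.43-fold. The spot was far above its surroundings on both arrays, with a raw median signal of 141222 over a local background of 31 in the FOXO1-Tg pool, and 57175.5 over 32 in the wild-type pool. Map1lc3a had 29152 in the FOXO1-Tg pool and 15458 in the wild-type pool, a log2 ratio of 0.79 (scanner error 0.20). Among all genes detected, 3.34% had a ratio at least as high as that of Gabarapl1 and 6.01% one at least as high as that of Map1lc3a.
The other three genes of the family were close to or slightly below 0. Map1lc3b, which encodes LC3B, the form most used as a marker of autophagosomes, had a mean signal of 42387 in the FOXO1-Tg pool and 42572 in the wild-type pool, a log2 ratio of -0.14. Gabarap had 30712 in the FOXO1-Tg pool and 33222 in the wild-type pool for its brighter probe, a log2 ratio of -0.24, and its second probe gave -0.31. Gabarapl2, which encodes GATE-16, had 27760 in the FOXO1-Tg pool and 30990 in the wild-type pool, a log2 ratio of -0.29. The log2 ratio of Gabarapl1 exceeded that of Gabarap by 1.39 and that of Gabarapl2 by 1.44 (scanner error of each difference 0.29), and the ratio of Map1lc3a exceeded that of Map1lc3b by 0.92 (0.29). Between Gabarapl1 and Map1lc3a the gap was 0.36, only 1.26 times its scanner error. These genes are similar in sequence, and whether each probe reads its own gene alone was not tested.

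The probe of Map1lc3b is printed 10 times on the array, which shows how closely repeated spots of 1 labeling agree. Its signals had a lowest value of 40919, a median of 42620 and a highest of 43495 in the FOXO1-Tg pool, against 40039, 42710 and 43963 in the wild-type pool. The ranges overlapped before scaling. After scaling, all 10 spots had a ratio below 0, from -0.17 to -0.08, with an SD of 0.03. The only other autophagy probe with repeated spots was that of Pik3r4, the regulatory subunit of the lipid kinase. It had 1340, 1406 and 1472 as lowest, median and highest signal in the FOXO1-Tg pool, against 1224, 1261 and 1390 in the wild-type pool. Its ratios ran from -0.12 to 0.08 (SD 0.06 over 10 spots) and 6 of the 10 were below 0. Spots of 1 pool share their RNA and labeling, so this spread says nothing about mice.

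**Figure D3:**
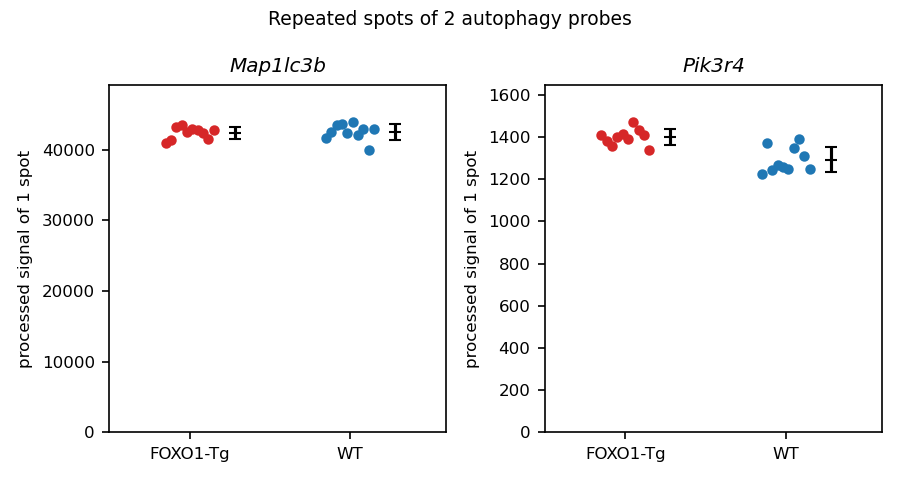
Processed signal of each of the 10 spots of the Map1lc3b probe (left) and of the Pik3r4 probe (right), FOXO1-Tg pool in red and wild-type pool in blue, with the mean and SD over spots as the black bar. The y axes start at 0, and the signals are not scaled between arrays. The spots of Map1lc3b overlap between the pools.

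Enzymes that process or attach the ATG8 proteins had ratios at or below 0. Among the ATG4 proteases, which trim ATG8 proteins before attachment and release them again from the membrane, Atg4a read 39.7 in the FOXO1-Tg pool and 57.0 in the wild-type pool, a log2 ratio of -0.65 (scanner error 0.26). This was the dimmest of the brightest-probe readings in the group, at 2.24 times the local background in the FOXO1-Tg pool and 2.78 times in the wild-type pool. With normexp background correction, which adds an offset to all signals, and quantile normalization, its ratio was -0.21, and with quantile normalization alone it was -0.50. Atg4d had 22483 in the FOXO1-Tg pool and 25302 in the wild-type pool, a ratio of -0.30. Atg4b had -0.15, and Atg4c, the highest among them, had 2585 in the FOXO1-Tg pool and 2430 in the wild-type pool, a ratio of -0.04. The second probe of Atg4c gave -0.07.
The conjugation enzymes form a chain in which Atg7 activates, Atg3 and Atg10 transfer, and the Atg12, Atg5 and Atg16l1 proteins form the complex that directs attachment. None of these 6 genes passed 1.5-fold, and their median was -0.19. Atg10 was lowest with 1241 in the FOXO1-Tg pool and 1500 in the wild-type pool, a ratio of -0.40, but its second probe gave -0.20. Atg5 was highest with 6100 in the FOXO1-Tg pool and 5545 in the wild-type pool, a ratio of 0.01. Between them lay Atg12 at -0.22, Atg7 at -0.20, Atg16l1 at -0.19 and Atg3 at -0.15. Apart from Atg10 and Atg12, these ratios were within the scanner error of 0. Second probes gave -0.04 for Atg12 and -0.28 (scanner error 0.21) for Atg7, so this split depends on the probe.

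The 3 cargo receptors differed from each other. Optn, which encodes optineurin, a receptor for ubiquitin-tagged mitochondria and bacteria, read 1790 in the FOXO1-Tg pool and 2533 in the wild-type pool, a log2 ratio of -0.63 (scanner error 0.20). Sqstm1, which encodes the ubiquitin-binding receptor p62, had 19554 in the FOXO1-Tg pool and 16723 in the wild-type pool, a ratio of 0.10. Nbr1, a related receptor, had -0.05. The ratio of Optn was below that of Sqstm1 by -0.73 and below that of Nbr1 by -0.58, 2.52 and 2.02 times the scanner error of the difference.

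In the complexes that start the autophagosome, all 10 genes lay within 1.5-fold. The ULK kinase complex receives the signal of nutrient shortage. Its kinase gene Ulk1 had a ratio of -0.06 and its homolog Ulk2 had -0.23. Atg13, a regulatory subunit, was highest with 20645 in the FOXO1-Tg pool and 17046 in the wild-type pool, a ratio of 0.15. Rb1cc1, which encodes the scaffold FIP200, was lowest with 4693 in the FOXO1-Tg pool and 5616 in the wild-type pool, a ratio of -0.39, whereas its second probe gave -0.10 (1942 in the FOXO1-Tg pool and 1899 in the wild-type pool).
The PI3K complex makes the lipid that recruits later factors, and its 6 genes had the narrowest range of the groups with more than 4 genes. Uvrag, a subunit of the form that acts on endosomes, was highest with 5200 in the FOXO1-Tg pool and 4126 in the wild-type pool, a ratio of 0.20. Ambra1, a regulator of the complex, had 0.05, Becn1, the gene of the core subunit beclin 1, had 0.01, Pik3r4 had -0.01 and the kinase gene Pik3c3 had -0.02. Atg14, which directs the complex to the forming autophagosome, was lowest with 1551 in the FOXO1-Tg pool and 1499 in the wild-type pool, a ratio of -0.08. The second probe of Pik3c3 gave -0.26. With no scaling of the arrays the median of the group was 0.13, and with the main scaling it was 0.00.

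Genes of membrane supply act after the kinases: Atg9a encodes a membrane protein of the vesicles that seed the autophagosome, Atg2a and Atg2b encode lipid transfer proteins, and Wipi1 and Wipi2 encode readers of the lipid made by the PI3K complex. Wipi2 was lowest with 907 in the FOXO1-Tg pool and 1111 in the wild-type pool, a log2 ratio of -0.42, and its second probe gave -0.24. The probes of Wipi1 gave -0.18 (brighter) and -0.32. Atg2a had -0.33, and Atg2b had -0.03. Atg9a was highest with 772 in the FOXO1-Tg pool and 694 in the wild-type pool, a ratio of 0.02. The gap of 0.24 between Wipi1 and Wipi2 was smaller than its scanner error of 0.29.

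The 2 transcription factors of the group, both activators of lysosome and autophagy genes that are held in the cytoplasm when nutrients are plentiful, had unequal ratios. Tfeb read 1725 in the FOXO1-Tg pool and 2842 in the wild-type pool, a log2 ratio of -0.85 (scanner error 0.20), and 5.63% of all genes detected had a ratio as low or lower. Tfe3 had 3537 in the FOXO1-Tg pool and 3104 in the wild-type pool, a ratio of 0.06, and its second probe gave 0.13. The ratio of Tfeb was below that of Tfe3 by -0.91 (scanner error of the difference 0.29). At the low end of the whole group, Tfeb, Atg4a and Optn did not differ from their neighbors beyond the scanner error: Tfeb and Atg4a were 0.20 apart in size with an error of 0.33, and Optn and Wipi2 were 0.21 apart with an error of 0.29. At the high end, Map1lc3a exceeded the next gene, Uvrag, by 0.58, 2.01 times the error.

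Of the 35 genes, 24 were read by 1 probe and 11 by a pair of probes. With the main scaling, both probes gave a ratio of the same sign in 11 of 11 genes. The gaps ran from 0.03 (Atg4c) to 0.29 (Rb1cc1), with a median gap of 0.13. The shared sign depended on the scaling: before it, the probes of Atg12, Pik3c3 and Rb1cc1 differed in direction. The share of all genes with a shared sign was not counted. Over all 4356 genes with several detected probes the median gap was 0.18. Each of the 5 genes past 1.5-fold was read by 1 probe with 1 spot, so none of them has a second reading.

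Promoter windows of the genes were searched for short motifs, and the windows that hold a forkhead match are shown. The RefSeq table of GRCm38.p6 holds windows from 250 bases before to 50 bases after the transcription start for 29 of the 35 genes, 35 windows in all, and none for Map1lc3a. They were searched on both strands for the forkhead core GTAAACA and its variant ATAAACA, which differ in the first base so that no site counts as both, and for the E-box CACGTG, the center of the site that TFEB and TFE3 bind. GTAAACA was found in 0 of the 35 windows and in 3.65% of all 32851 windows. ATAAACA was found in 4 of the 35 windows (11.4%) and in 4.60% of all. Either of these forkhead strings was found in 11.4% of the 35 windows and in 7.97% of all. The 4 windows are shown here 5′ to 3′ along the gene, with the match in capitals (TGTTTAT is ATAAACA on the other strand). They lie at chr6:129532942-129533241 (plus strand) for Gabarapl1, chr2:91729888-91730187 (plus) for Ambra1, chr5:142629334-142629633 (plus) for Wipi2 and chrX:140953595-140953894 (plus, the first of 2 starts) for Atg4a.
Gabarapl1: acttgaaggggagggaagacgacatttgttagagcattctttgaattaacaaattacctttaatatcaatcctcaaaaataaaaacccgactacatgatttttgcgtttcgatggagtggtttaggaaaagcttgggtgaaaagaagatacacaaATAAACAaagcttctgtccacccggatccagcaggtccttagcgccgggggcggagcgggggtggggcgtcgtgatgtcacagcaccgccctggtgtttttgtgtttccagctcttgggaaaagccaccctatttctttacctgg
Ambra1: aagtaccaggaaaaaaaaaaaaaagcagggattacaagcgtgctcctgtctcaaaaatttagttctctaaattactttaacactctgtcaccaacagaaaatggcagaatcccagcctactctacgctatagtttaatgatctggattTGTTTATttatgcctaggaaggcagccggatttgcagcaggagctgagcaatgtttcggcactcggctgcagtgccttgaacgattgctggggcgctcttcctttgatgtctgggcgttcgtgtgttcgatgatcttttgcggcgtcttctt
Wipi2: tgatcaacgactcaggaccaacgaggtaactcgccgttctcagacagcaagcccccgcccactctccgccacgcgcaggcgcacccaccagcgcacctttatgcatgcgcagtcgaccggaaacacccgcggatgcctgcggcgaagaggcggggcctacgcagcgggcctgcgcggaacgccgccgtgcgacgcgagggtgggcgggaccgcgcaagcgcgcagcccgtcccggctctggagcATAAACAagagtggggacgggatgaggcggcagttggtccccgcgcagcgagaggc
Atg4a: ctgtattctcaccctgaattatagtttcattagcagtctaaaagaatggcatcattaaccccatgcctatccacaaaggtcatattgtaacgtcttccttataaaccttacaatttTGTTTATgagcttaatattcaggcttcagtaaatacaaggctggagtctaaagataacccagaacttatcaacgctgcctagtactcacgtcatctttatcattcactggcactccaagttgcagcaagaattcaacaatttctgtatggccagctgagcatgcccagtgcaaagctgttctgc
Counted from the transcription start, the match began at position -95 in Gabarapl1, -102 in Ambra1, -6 in Wipi2 and -134 in Atg4a. The log2 ratio was 1.15 for Gabarapl1, 0.05 for Ambra1, -0.42 for Wipi2 and -0.65 for Atg4a, so genes with the match lay on both sides of 0. None of these motifs was found in the windows of Tfeb or Optn, nor in the second window of Atg4a. The E-box was found in windows of Atg3, Atg5, Atg7 and Atg14 (11.4% of the 35 windows and 7.15% of all), whose ratios ran from -0.20 to 0.01. A match is a string of letters and not a shown binding site.

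Other genes of the pathway, 46 in a second list, had a median log2 ratio of -0.09. Of the 45 detected, 2 were more than 2-fold higher (4.20% of all genes) and 1 was more than 2-fold lower (3.86% of all genes). At 1.5-fold 3 were higher (9.18% of all genes) and 2 were lower (10.8% of all genes), so these counts were close to or below those of the whole array. Depp1, a FOXO-induced gene linked to autophagy, had 80063 in the FOXO1-Tg pool and 2615 in the wild-type pool, a ratio of 4.81. Dram1, which encodes a lysosomal membrane protein that acts in autophagy downstream of p53, had 495 in the FOXO1-Tg pool and 182 in the wild-type pool, a ratio of 1.31. Snap29, a SNARE gene for the fusion of autophagosomes with lysosomes, was read higher by both of its probes. The brighter one had 12978 in the FOXO1-Tg pool and 6961 in the wild-type pool, a ratio of 0.77, and the other had 3832 in the FOXO1-Tg pool and 1867 in the wild-type pool, a ratio of 0.91.
Its fusion partners did not share this. Stx17 had -0.15, Vamp8 had 0.04 and Ykt6, another SNARE of this step, had -0.22.
On the lower side, Dapk2, a kinase that can phosphorylate beclin 1, had 643 in the FOXO1-Tg pool and 2998 in the wild-type pool, a ratio of -2.35. Atg101, a subunit of the ULK complex and binding partner of Atg13, had 8888 in the FOXO1-Tg pool and 13587 in the wild-type pool, a ratio of -0.74. Its value lay below those of all 4 ULK complex genes of the main list. The mitophagy receptor gene Bnip3 had 0.43 for its brightest probe, with 161455 in the FOXO1-Tg pool and 109367 in the wild-type pool, and 0.35 and 0.39 for the other two.

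Markers of other cells also differed between the pools. In bulk RNA, a change in the share of cells of a type and a change in RNA per cell cannot be told apart. All 8 adipocyte markers were past 1.5-fold and 6 of them past 2-fold on the higher side, from 0.76 (Lipe) to 1.93 (Retn), and their signals summed to 301397 in the FOXO1-Tg pool and 103083 in the wild-type pool. None of them was at background in either pool. Of 6 Schwann cell markers 4 were more than 2-fold higher (Ngfr highest at 3.02, Sox10 lowest at 0.10), and the summed signal was 91973 in the FOXO1-Tg pool and 66709 in the wild-type pool. Of 6 fibroblast markers none was past 2-fold and 3 were past 1.5-fold, with a median of 0.57 (Lum highest at 0.75, Dcn lowest at 0.27), and the summed signal was 355494 in the FOXO1-Tg pool and 257135 in the wild-type pool. None of 7 macrophage markers passed 1.5-fold (median 0.32, Mrc1 highest at 0.51, Cd163 lowest at 0.11), and none of 6 endothelial markers did (median -0.20, Tek highest at -0.14, Pecam1 lowest at -0.32). Dimmer probes of 2 macrophage markers gave lower ratios than the brightest: 0.11 against 0.46 for Adgre1, and 0.05 and -0.02 against 0.45 for Csf1r. Of 4 satellite cell markers, Vcam1 had 0.82, Pax7 0.14 and Cdh15 -0.13. The fourth, Myf5, was well above background in the FOXO1-Tg pool only, so its ratio is a lower bound and it was not ranked. The 10 muscle fiber genes, a list without genes of slow fibers, were all bright and had ratios from -0.44 (Myh2) to 0.11 (Mylpf). Their median of -0.14 equals that of the autophagy genes with the main scaling. With quantile normalization the medians were 0.00 (fiber genes) and -0.11 (autophagy genes). Second probes gave -0.67 (Mylpf, dim), -0.44 (Tnnt3) and -0.16 (Pvalb). The paper lists slow-fiber genes, among them Myh7 and Tnnt1, as lower in FOXO1-Tg muscle. The part of these other cells in the ratios of Gabarapl1, Map1lc3a, Optn and Tfeb was not tested.

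**Figure D4:**
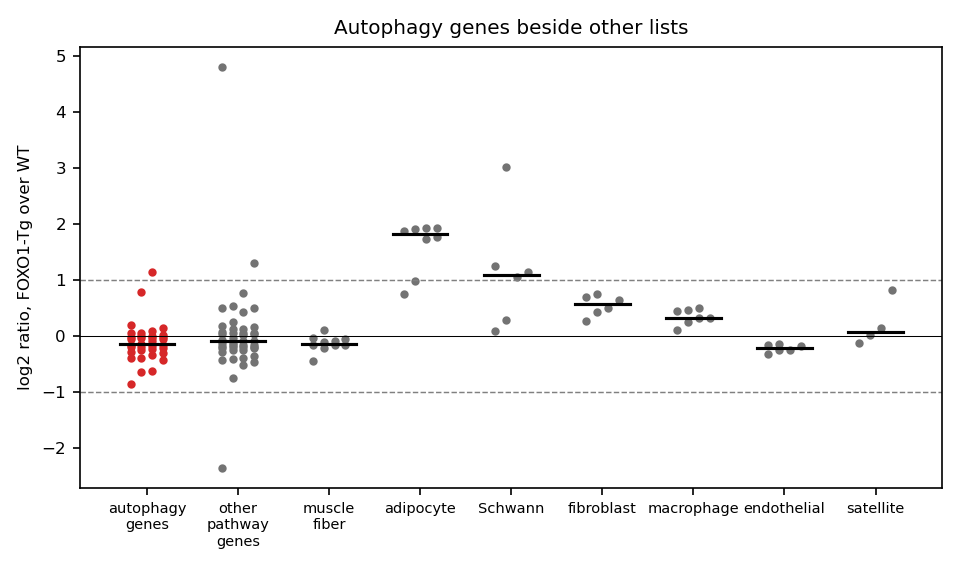
FOXO1-Tg over wild-type as a log2 ratio (y axis) of each detected gene in the autophagy list (red), the list of other pathway genes and 7 lists of cell type markers (grey). Black lines are medians, the satellite marker Myf5 is drawn at its lower bound, and dashed lines mark 2-fold. The autophagy genes and the muscle fiber genes share a median of -0.14, and the adipocyte markers have 1.82.

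The ratios were recomputed with 12 other ways of processing the arrays, including 5 other scalings. Several of these, such as the filters on detection and the kept outliers, could not change a ratio of the autophagy genes. Gabarapl1 stayed past 2-fold with all 12, from 1.15 to 1.28, and Map1lc3a ran from 0.79 to 0.92. Tfeb ran from -0.85 to -0.72 and Optn from -0.64 to -0.50, so that Optn fell short of 1.5-fold under some scalings. Counting all 35 genes, 10 had a ratio above 0 and 18 a ratio below 0 under every alternative, and the other 7 lay below 0 with the main processing and above it with at least 1 alternative. The 5 other scalings all raised the group median, from -0.14 to between -0.12 and -0.01. Ratios above 0 and the place of Gabarapl1 past 2-fold were thus favored to stay, and their stability is weak evidence.

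**Figure D5:**
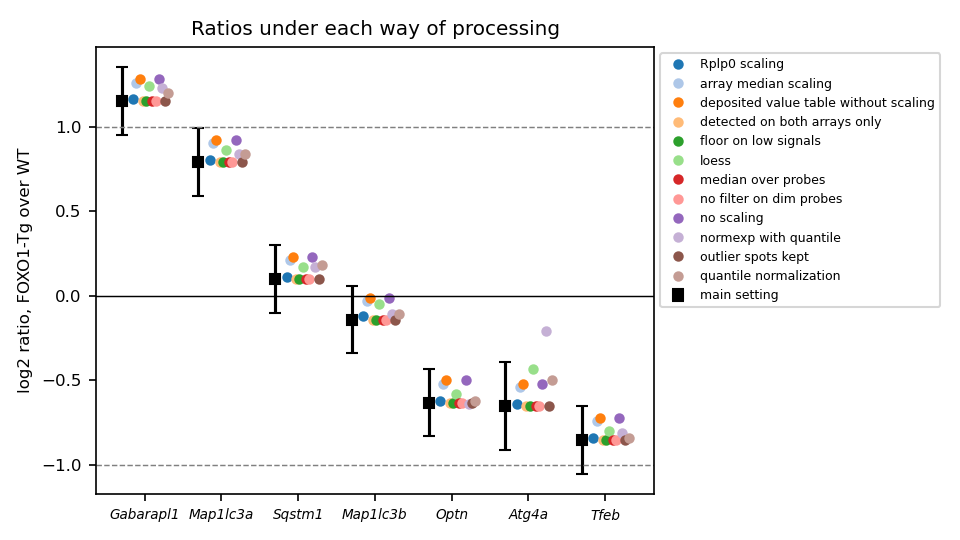
FOXO1-Tg over wild-type as a log2 ratio (y axis) of 7 autophagy genes with the main setting (black square, bar is the scanner error) and with each of 12 alternatives (colored points), dashed lines at 2-fold. Gabarapl1 stays above the upper line, and Atg4a lies at -0.21 with normexp and quantile normalization together and at -0.50 with quantile normalization alone.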

How the data were processed

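RNA of 1 pool of FOXO1-Tg gastrocnemius and 1 pool of wild-type gastrocnemius was read on 2 one-color Agilent arrays. The authors deposited intensity values from Agilent Feature Extraction (version 11.0.1.1 in the file headers, 9.5 in the notes of the submitters). Background had been subtracted, the arrays had not been scaled to each other, and a value table repeats these signals. Of the spots, 65.8% (FOXO1-Tg) and 65.5% (wild-type) were well above background.

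Outlier spots on either array were left out (237), spots of a probe were averaged on the log2 scale, and the 75th percentile of each array was subtracted. A probe was detected with at least 50% of its spots well above background. Probes (28329 of 55670) were named through their transcripts in a RefSeq table of GRCm38.p6. The brightest detected probe stood for a gene. Probes seen on a single array gave a bound, which applied to no autophagy gene. No such bound was used with quantile normalization, loess, normexp or the floor. Without replicates no test was run, and counts are past a fixed fold. The procedure was tested on simulated data. Genes and lists were chosen with earlier results of these data known. All 35 genes were named, with signals for those past 1.5-fold, the ATG8 family and the highest and lowest of each role, as were other pathway genes past 2-fold, their 2 highest and 2 lowest, and the highest and lowest marker of each list (satellite markers were not ranked, as 1 is a bound). Snap29, Stx17, Vamp8, Ykt6 and Bnip3 were chosen after their values were seen. Alternatives were 5 other scalings, normexp (offset 50) with quantile normalization, the value table, 2 filters, outliers kept, the median over probes, a floor and other folds. Python 3.11.15, pandas 2.3.3, R 4.3.3 and limma 3.58.1 were used.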

Additional observations from a re-analysis of the deposited data

How the results depend on the processing

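No paired analysis was possible because there was 1 array of pooled RNA per genotype, which also leaves no replicate to omit. The number of autophagy genes more than 2-fold higher was 1 and lower 0 with each of the 12 alternatives. With a threshold of 1.5-fold 2 genes were higher and 3 lower, and with 3-fold 0 were higher. Of 420 recomputed ratios, 419 stayed within the scanner error of the main value. The exception was Atg4a, a dim probe, at -0.21 with normexp and quantile normalization together (-0.50 with quantile normalization alone). Much of this stability was fixed in advance. The other scalings only raised the group median, which favored ratios above 0 staying there. The 2 filters, the kept outliers and the floor could not change ratios of probes that were detected on both arrays without outlier spots. The value table repeats the unscaled signals, and the median over probes can change only genes with several probes. Role group medians moved by less than the scanner error. Past 2-fold were 700 higher and 643 lower genes of the whole array, against 411 and 218 with normexp, 1100 and 559 with loess, and 849 and 1574 with no filter on dim probes. Higher genes made up 52.1% of these, but 62.1% with scaling to the median, 63.2% with quantile normalization, 63.6% with no scaling, 66.3% with loess and 65.3% with normexp. With quantile normalization, loess and normexp, genes seen on a single array entered with their measured ratio and not a bound. Those counts and shares therefore differ from the main ones by more than the scaling. The median of all genes was -0.06 with the main scaling and 0.06 with no scaling. The median of 4 satellite cell markers was 0.08 with Myf5 at its bound. It was 0.53 with loess and 0.48 with quantile normalization, where Myf5 entered with its measured ratio, so this change is not one of scaling alone. The ratio of Foxo1 was 2.92 as the median over its probes. The number of arrays limits the precision, and differences between mice were not measured.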
